A study of Mus musculus with 6 samples.

Results

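The Hedgehog genes described here are 9 of the 24346 gene names measured in newborn mouse calvaria, chosen by name: the ligand Ihh, the co-receptors Boc and Cdon, the transducers Smo, Gli2 and Gli3, and the feedback targets Ptch1, Hhip and Gli1. The calvaria, or skull roof, was dissected with the interparietal and occipital bone and without ear cartilage, and its messenger RNA was sequenced. All 6 libraries came from newborns homozygous for a floxed Pth1r allele (Pth1rfl/fl), the gene of the parathyroid hormone 1 receptor. The 3 control libraries carried nothing else that the labels name, and the 3 libraries labelled mutant also carried Prx1-Cre (Prx1-Cre;Pth1rfl/fl). In Prx1-Cre mice an enhancer of Prrx1 drives Cre in mesenchyme of the limb buds and of part of the skull. Recombination is thus directed at those cells and their descendants, and where it took place in these libraries was not measured. Age beyond newborn, treatment and the number of animals behind a library were not stated in the labels. If some libraries of a group shared an animal, the p-values below would in part cover technical spread. Xist and Y-linked genes gave both sexes in each group, so the libraries of a group did not all come from the same animal.

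Hedgehog ligands bind Patched receptors and so release Smoothened, which then acts at the primary cilium to let Gli transcription factors switch on target genes. Among those targets are Ptch1 and Hhip, which bind and hold back the ligand, and Gli1, so transcripts of these genes are widely used as readouts of signalling. In endochondral bone, Ihh comes mainly from chondrocytes about to become hypertrophic, and it induces Pthlh, whose product signals back through the parathyroid hormone 1 receptor to delay that step. In the skull vault, Ihh is also known from cells at the edges of growing bone.

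In the libraries labelled mutant, Ptch1 and Hhip were higher, by 1.71-fold and 2.11-fold. Of the 9 members, limma called these 2 as rises and 0 as falls (adjusted p under 0.05), where it called 0.607% of the 13180 tested genes in either direction, 0.524% as rises and 0.0835% as falls. At an unadjusted p under 0.05 were 4 of the 9 members and 10.5% of all tested genes. The third feedback target, Gli1, the ligand Ihh and the transducers did not pass, and neither did Boc and Cdon, which had lower values in every library labelled mutant than in any control. The median log2 change of the 9 members was 0.18, against 0.00147 over all tested genes. In 5 of the 9 members the groups did not overlap, 3 of them higher and 2 lower, where 16.1% of all tested genes did not overlap, 9.34% higher and 6.79% lower. Both calls ended when any 1 library was left out, with adjusted p between 0.0577 and 0.0853 for Ptch1 and between 0.0813 and 0.149 for Hhip. Over all tested genes the calls fell from 80 to between 15 and 43 in those fits, or 0.114% to 0.326%.

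The promoter stretches of the pair that rose are shown for their sequence, with CG dinucleotides in capitals. They are the 250 bases before 1 RefSeq start of each gene on GRCm38.p6, written 5′ to 3′ on the gene's own strand, from chr13:63565736-63565985 (minus strand) for Ptch1 and chr8:80058009-80058258 (minus strand) for Hhip. For Ptch1 this is an internal start, 7863 bases inside the gene's annotated span, and the stretch before its outermost start was not examined.
Ptch1: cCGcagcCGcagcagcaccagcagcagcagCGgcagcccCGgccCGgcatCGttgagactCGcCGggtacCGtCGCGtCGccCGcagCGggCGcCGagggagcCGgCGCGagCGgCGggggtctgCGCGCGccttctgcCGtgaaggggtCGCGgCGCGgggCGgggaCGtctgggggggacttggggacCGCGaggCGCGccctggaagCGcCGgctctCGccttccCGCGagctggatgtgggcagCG
Hhip: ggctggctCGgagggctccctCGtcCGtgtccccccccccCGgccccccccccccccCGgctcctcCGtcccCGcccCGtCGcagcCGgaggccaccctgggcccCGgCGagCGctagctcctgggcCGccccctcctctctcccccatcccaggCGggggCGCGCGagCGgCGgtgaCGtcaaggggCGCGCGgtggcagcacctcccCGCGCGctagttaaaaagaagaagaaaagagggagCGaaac

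Ptch1 held 41 CG dinucleotides in this window and Hhip 28, against a median of 6 over the 32851 promoter windows of the table. For Ptch1, 98.9% of the windows held fewer, and for Hhip 92.4%. Among the other members with an entry, Gli3 held 34, Ihh 24, Gli2 22, Smo 15 and Cdon 1. A high count was thus not particular to the pair that rose, and for Gli3, 96.5% of the windows held fewer. The consensus bound by Gli factors, GACCACCCA, was searched on both strands of the table's 300-base windows, which run to 50 bases past the start. The start used for Cdon lies 30948 bases inside its span and that for Gli3 488. It lay in 0 of the 7 members with an entry and in 0.253% of all windows. Its core ACCACCC, which lies within the consensus, was found in the window of Gli2 alone among the 7, and in 4.61% of all windows.

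Ptch1 encodes Patched-1, the receptor that keeps Smoothened silent until ligand binds. Its FPKM (fragments scaled to transcript length and library total) was 5.18, 5.70 and 5.44 across controls 1 to 3, against 8.52, 9.40 and 9.91 across libraries 1 to 3 labelled mutant. The lowest value of the second group was well above the highest control. The means were 5.44 ± 0.26 and 9.28 ± 0.71 FPKM (SD, n = 3 each). On the log2(FPKM + 1) scale the difference was 0.67 ± 0.08 (SE), with a 95% interval from 0.49 to 0.85 (Benjamini-Hochberg adjusted p = 0.0177 by limma), which ranked 36th by p among the tested genes. On GRCm38 the gene lies at chr13:63508328-63573598, minus strand, and the annotated gene that its span overlaps is on the same strand.

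Hhip encodes a membrane protein that binds Hedgehog ligands and keeps them from Patched. Its values were 3.08, 3.23 and 3.87 FPKM across controls, against 6.63, 6.28 and 8.59 across libraries labelled mutant. Again the groups were apart, with library 3 labelled mutant the highest and control 3 the highest of its own group. The means were 3.39 ± 0.42 and 7.17 ± 1.24 FPKM (SD, n = 3 each), and the log2 difference was 0.89 ± 0.13 (SE), with a 95% interval from 0.59 to 1.19 (Benjamini-Hochberg adjusted p = 0.0405 by limma). On GRCm38 the gene lies at chr8:79965851-80058006, minus strand. An exact permutation test of the FPKM means, two-sided, gave p = 0.1 for both genes, the smallest p that 3 libraries against 3 allow.

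Gli1, a Gli transcription factor that activates targets and is itself switched on by the pathway, did not pass. It had 34.8, 40.9 and 34.8 FPKM across controls, against 38.9, 41.7 and 49.1 across libraries labelled mutant, so the groups overlapped through control 2. The means were 36.8 ± 3.56 and 43.2 ± 5.27 FPKM (SD, n = 3 each), a ratio of 1.17, and the 95% interval of the log2 difference ran from -0.03 to 0.47 (0.22 ± 0.10 SE, Benjamini-Hochberg adjusted p = 0.543 by limma). The gene (chr10:127329882-127341974, minus strand, GRCm38) overlaps Arhgap9 on the opposite strand, and how strand entered the quantification was not given. Arhgap9, a gene known from blood cells, had 2.47, 2.58 and 2.10 FPKM across controls, against 4.14, 3.55 and 4.26 across libraries labelled mutant, and its part in the Gli1 values was not tested.

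**Figure D1:**
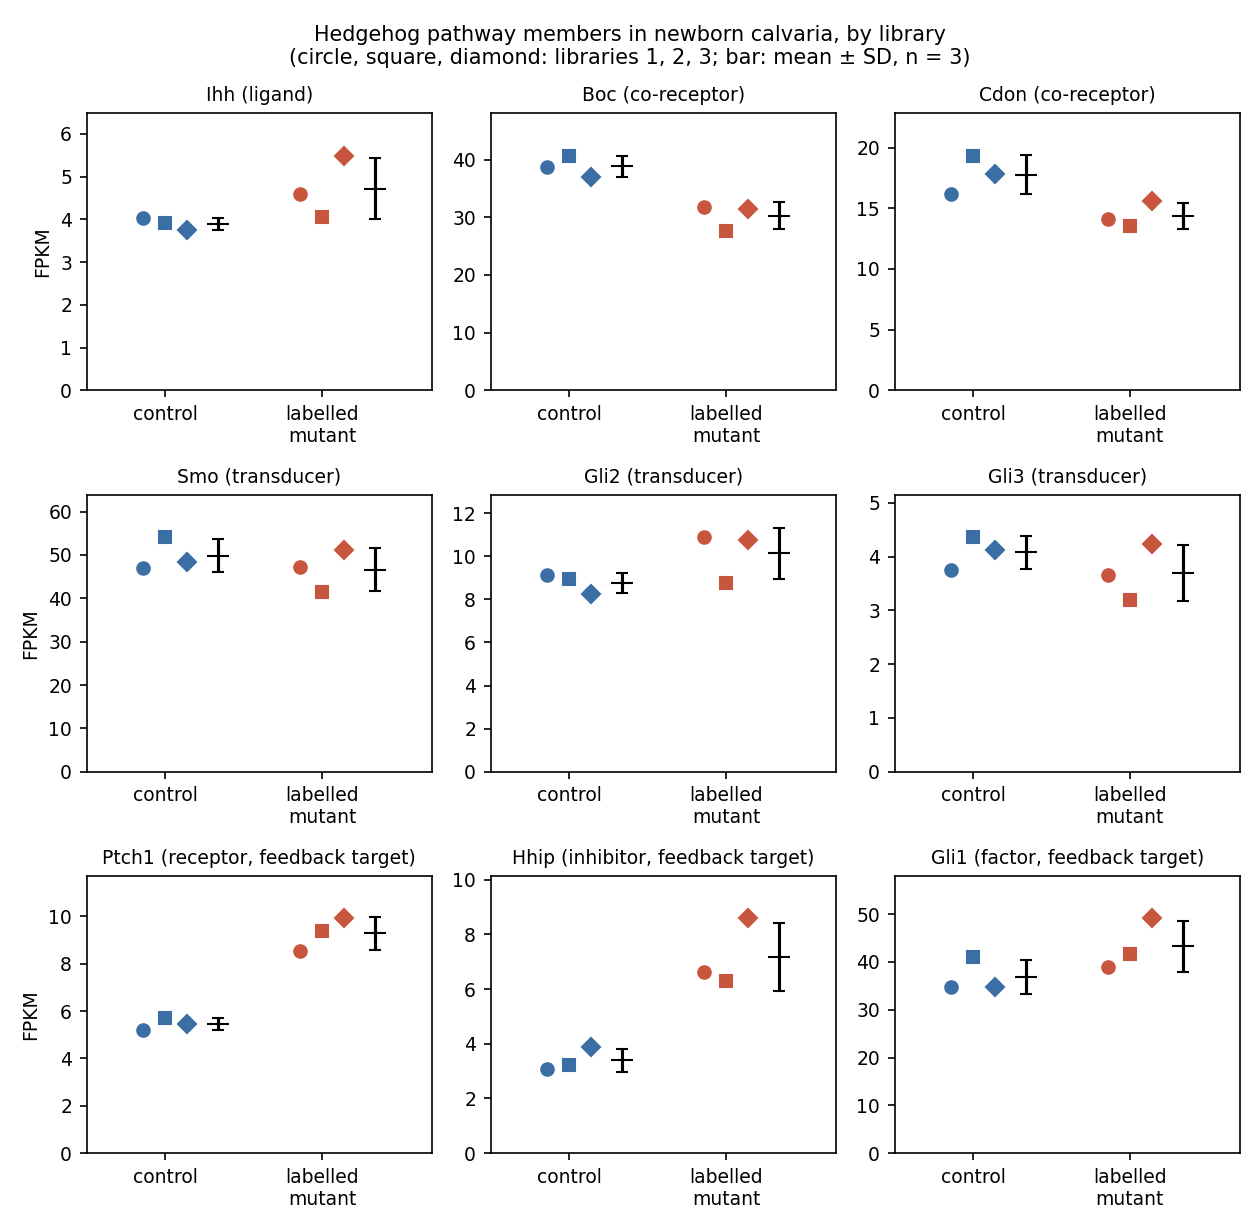
FPKM (y axes from 0) of the 9 Hedgehog members in the 3 control libraries (blue) and the 3 labelled mutant (red), with bars for mean ± SD, n = 3. Ptch1 and Hhip lie apart and higher in the libraries labelled mutant, and Ihh does so by a narrow margin. Boc and Cdon lie apart and lower, and Smo, Gli1, Gli2 and Gli3 overlap.

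Ihh, the Indian hedgehog ligand (chr1:74945315-74951672, minus strand, GRCm38), was low in all libraries. Its values were 4.02, 3.91 and 3.74 FPKM across controls, against 4.60, 4.06 and 5.49 across libraries labelled mutant. Every library labelled mutant was above every control, but library 2 lay only just above control 1. The means were 3.89 ± 0.14 and 4.72 ± 0.72 FPKM (SD, n = 3 each), with a ratio of 1.21. In log2 units the difference, 0.22 ± 0.10 (SE), had a 95% interval from -0.03 to 0.46 and did not pass (Benjamini-Hochberg adjusted p = 0.545 by limma). Of the other ligand genes, singled out after their values were seen, Shh was listed at 0 in all 6 libraries and Dhh had between 0.514 and 0.915 FPKM.

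Boc and Cdon encode related cell-surface proteins that bind ligand together with Patched and help the cell receive it. On GRCm38 they lie at chr16:44485049-44558897 (minus strand) and chr9:35421128-35507652 (plus strand). Boc had 38.8, 40.7 and 37.0 FPKM across controls, against 31.8, 27.7 and 31.4 across libraries labelled mutant. The means were 38.8 ± 1.86 and 30.3 ± 2.30 FPKM (SD, n = 3 each), a ratio of 0.780, and the log2 difference was -0.35 ± 0.07 (SE), with a 95% interval from -0.52 to -0.18 (Benjamini-Hochberg adjusted p = 0.124 by limma). Cdon had 16.1, 19.3 and 17.9 FPKM across controls, against 14.1, 13.5 and 15.6 across libraries labelled mutant, with a ratio of means of 0.810. Its log2 difference was -0.29 ± 0.09 (SE), from -0.49 to -0.08 (Benjamini-Hochberg adjusted p = 0.267 by limma). Neither passed the threshold, and the groups of neither overlapped.

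Among the transducers, the groups overlapped for each of the 3 genes. They lie at chr6:29735503-29761365 (Smo, plus strand), chr1:118834132-119053619 (Gli2, minus strand) and chr13:15463235-15730026 (Gli3, plus strand) on GRCm38. Smo, the gene of Smoothened, was the most abundant member, with 46.9, 54.1 and 48.4 FPKM across controls, against 47.3, 41.4 and 51.2 across libraries labelled mutant. Its log2 difference was -0.10 ± 0.09 (SE), with a 95% interval from -0.32 to 0.12. Gli2, the main activator of targets, had 9.13, 8.95 and 8.24 FPKM across controls, against 10.9, 8.76 and 10.8 across libraries labelled mutant, a log2 difference of 0.18 ± 0.09 (SE), from -0.04 to 0.40. Gli3, which acts mostly as a repressor where ligand is absent, had 3.75, 4.37 and 4.12 FPKM across controls, against 3.66, 3.20 and 4.24 across libraries labelled mutant. Its log2 difference was -0.12 ± 0.10 (SE), from -0.36 to 0.13. The Benjamini-Hochberg adjusted p by limma was 0.820 for Smo, 0.575 for Gli2 and 0.796 for Gli3.

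By mean FPKM over the 6 libraries, the order was Smo (48.2), Gli1 (40.03), Boc (34.6), Cdon (16.1), Gli2 (9.45), Ptch1 (7.36), Hhip (5.28), Ihh (4.30) and Gli3 (3.89). Not all neighbours in this order were apart. In controls, Gli1 and Boc, Hhip and Ihh, and Ihh and Gli3 had overlapping ranges. In the libraries labelled mutant, overlap was seen for Smo and Gli1, Gli2 and Ptch1, Ptch1 and Hhip, and Ihh and Gli3. Ptch1 was below Gli2 in every control and above it in library 2 labelled mutant alone.

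Ratios of FPKM within a library, 9 of them, set members side by side. They were chosen after the values were seen and so are a description, with no test. The Ptch1 to Gli1 ratio was 0.149, 0.139 and 0.156 in controls and 0.219, 0.226 and 0.202 in the libraries labelled mutant. For Hhip to Ptch1, the pair that rose, it was 0.594, 0.567 and 0.711 in controls and 0.778, 0.669 and 0.866 in the libraries labelled mutant, overlapping through control 3 and library 2. Relative to the ligand, the Hhip to Ihh ratio was 0.765, 0.827 and 1.03 in controls and 1.44, 1.55 and 1.56 in the libraries labelled mutant. The Ptch1 to Ihh ratio had means of 1.40 ± 0.10 and 1.99 ± 0.28 (SD, n = 3 each), also without overlap. The Ptch1 to Smo ratio, of the brake to what it holds back, was 0.111, 0.105 and 0.112 in controls and 0.180, 0.227 and 0.194 in the libraries labelled mutant. For Gli1 to Ihh the means were 9.48 ± 0.93 and 9.22 ± 0.93 (SD, n = 3 each), with overlapping groups. The ratio of Gli3 to Gli2 transcripts was 0.411, 0.488 and 0.501 in controls. In the libraries labelled mutant it was 0.336, 0.365 and 0.394, lower in all of them than in any control. Ihh relative to Col10a1, the collagen gene of hypertrophic chondrocytes, had ratios of 0.461, 0.546 and 0.268 in controls and 0.152, 0.157 and 0.297 in the libraries labelled mutant, overlapping through control 3 and library 3.

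**Figure D2:**
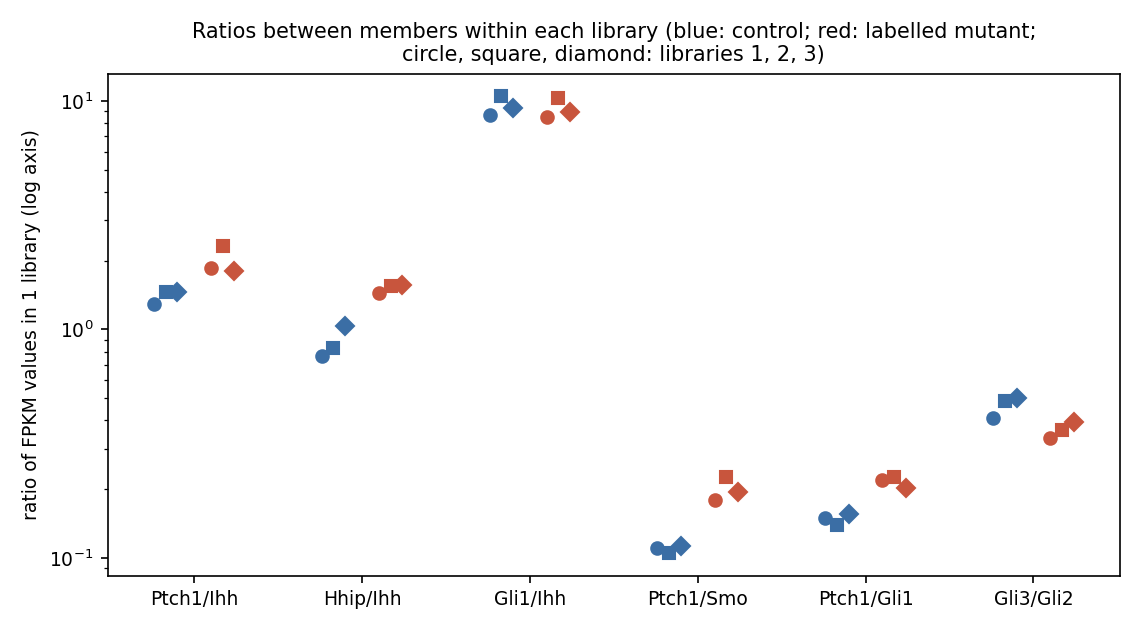
Ratios between the FPKM values of pairs of members within each library (log axis), controls in blue and libraries labelled mutant in red. Ptch1 and Hhip are higher relative to Ihh in the libraries labelled mutant, and Ptch1 also relative to Smo and Gli1, while Gli1 relative to Ihh overlaps between groups.

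The wider pathway was read from 4 lists holding 44 other genes, of which 35 reached the mean of 1 FPKM needed for testing. In limma, 0 of the 35 passed after Benjamini-Hochberg adjustment and 6 had an unadjusted p under 0.05. Over all tested genes these shares were 0.607% and 10.5%. Without overlap between groups, 1 of the 35 was higher and 5 were lower, where 9.34% and 6.79% of all tested genes were. Values were higher for 14 and lower for 21, with a median log2 change of -0.03. Among receptors, Gas1, a further co-receptor that binds ligand beside Boc and Cdon, had 98.6, 92.4 and 84.0 FPKM across controls, against 74.9, 55.04 and 66.9 across libraries labelled mutant, lower in all of the latter. Its log2 difference was -0.48 ± 0.12 (SE; Benjamini-Hochberg adjusted p = 0.192 by limma). Lrp2, which can also bind ligand, was under the limit for testing.

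Of genes for making and releasing ligand, 5 of 7 were tested. Scube1, Scube2 and Scube3, whose secreted products help release ligand from the cells that make it, had ratios of means of 0.780, 0.764 and 0.757, and for Scube1 and Scube3 the groups did not overlap. Their Benjamini-Hochberg adjusted p by limma was 0.440, 0.476 and 0.213. Disp1, which exports ligand, had 13.4 ± 1.21 and 13.1 ± 0.72 FPKM (SD, n = 3 each).

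All 21 genes of the list of other transducers and of the cilium were tested, and their log2 changes lay between -0.15 and 0.15, with a median of 0.000246. Tulp3, a ciliary trafficking gene, had the smallest p of them, with a ratio of 0.895. Arl13b, a small GTPase of the cilium, and Sufu, which holds Gli factors in check, had ratios of 1.12 and 0.929. Prkaca and Csnk1a1, kinases that phosphorylate Gli proteins, were the most abundant, with 111 ± 16.9 and 71.9 ± 2.61 FPKM among controls, against 104 ± 15.1 and 74.6 ± 2.13 among libraries labelled mutant (SD, n = 3 each).

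Genes known to respond to Hedgehog in other settings showed no shared direction, with 8 of 14 tested, 2 higher and 6 lower. Pthlh, the gene of parathyroid hormone-related protein, had 1.92, 3.12 and 2.40 FPKM across controls, against 3.95, 4.93 and 4.32 across libraries labelled mutant. All of the latter were higher, and the log2 difference was 0.64 ± 0.14 (SE; Benjamini-Hochberg adjusted p = 0.144 by limma). Mycn, a growth-promoting transcription factor gene, went the other way, with 2.94, 3.53 and 2.72 FPKM across controls, against 1.77, 2.15 and 1.89 across libraries labelled mutant (log2 difference -0.46 ± 0.11 SE, adjusted p = 0.172). Foxc2, a forkhead factor gene, had a ratio of 0.828, the cell cycle gene Ccnd1 0.870 and Rab34, which acts in building cilia, 0.980. None of these 5 passed.

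**Figure D3:**
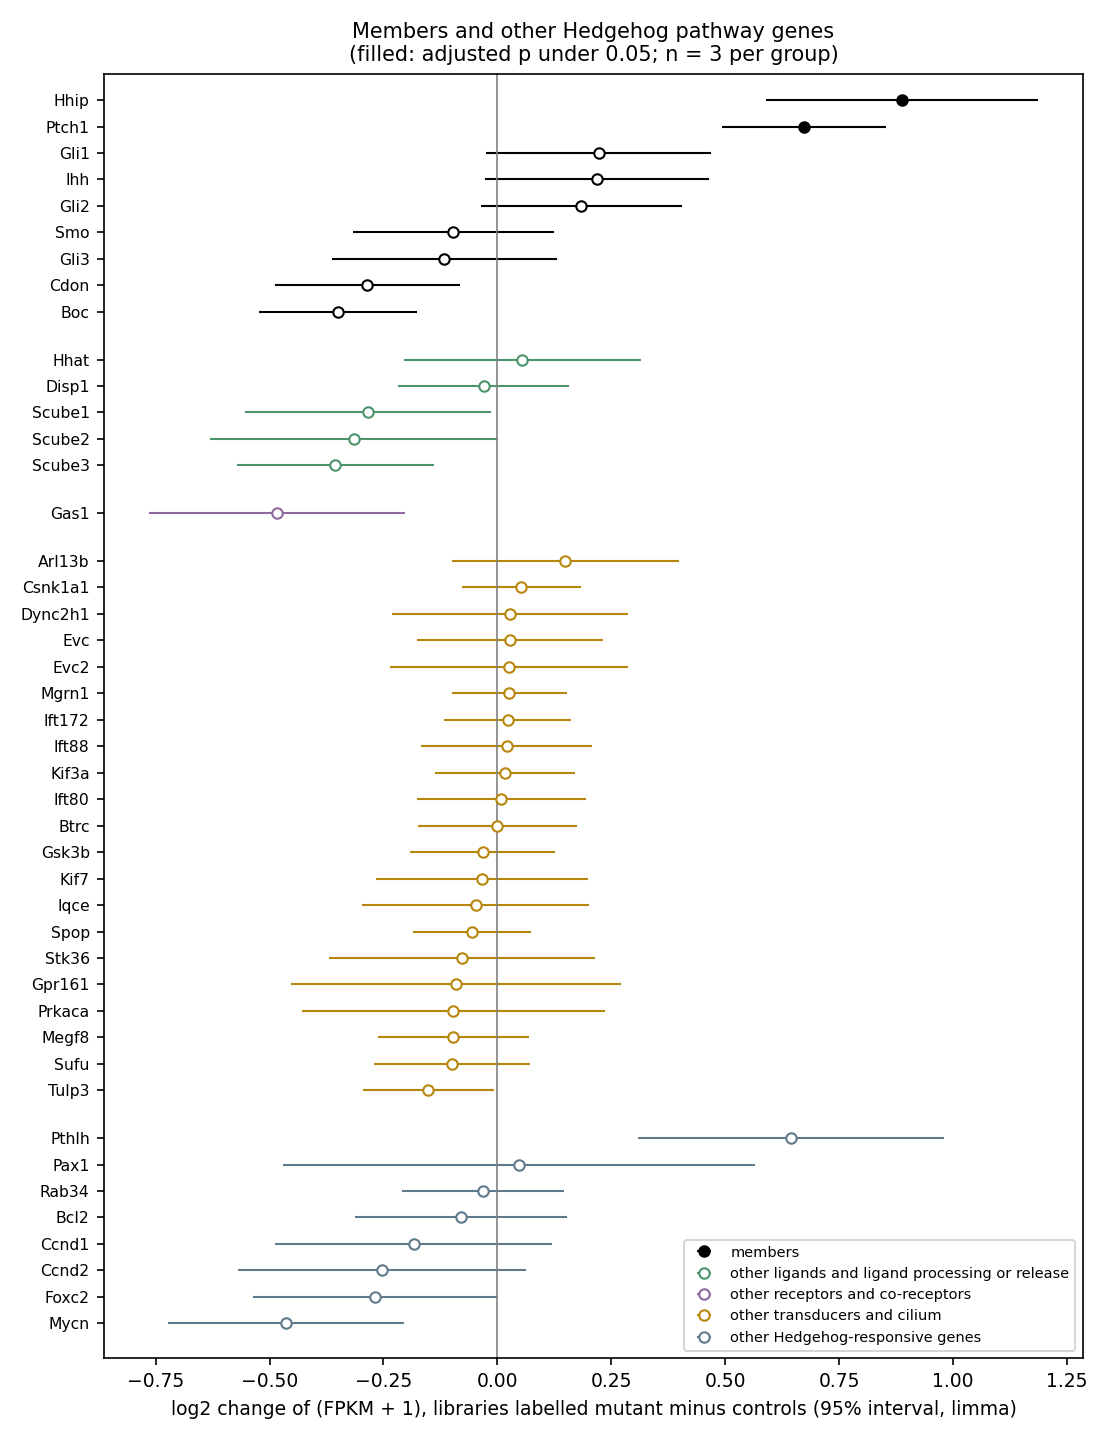
Log2 change of FPKM + 1, libraries labelled mutant minus controls, with its 95% interval from limma, for the 9 members and the 35 other tested pathway genes, grouped by role. Filled points are those past an adjusted p of 0.05, which are Ptch1 and Hhip alone, and the transducer and cilium genes lie between -0.15 and 0.15.

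The groups lay apart in the targeted gene, which did not pass the threshold, and in the sums of several cell type marker lists. Pth1r had a mean of 94.8 ± 6.55 FPKM among controls and 131 ± 9.45 among libraries labelled mutant (SD, n = 3 each), and so was not lower in the latter (Benjamini-Hochberg adjusted p = 0.065 by limma). The labels do not say which exons the floxed allele loses, so a value for the whole gene may not show the deletion. Pth1r also overlaps Myl3 on the opposite strand, a muscle myosin gene with 20.2 to 43.2 FPKM in controls and 18.6 to 29.5 in the libraries labelled mutant. Each direction given here is that of the labels alone. In a homogenised tissue, fewer cells of a type and less RNA per cell cannot be told apart. The summed FPKM of 4 markers of hypertrophic chondrocytes, most of which osteoblasts can also express, was 141 to 168 in controls and 290.3 to 311 in the libraries labelled mutant. That of 10 cartilage markers was 801 to 1750.3 and 316 to 445, and that of 6 osteoclast markers 574 to 645 and 1569 to 1716. Col2a1 (means of 646 and 157) was the largest part of the cartilage sum. Of the 10 cartilage markers, 9 were lower and 1 higher, and 4 passed the threshold as falls. Past it as rises were 5 of the 6 osteoclast markers and 1 of the 4 hypertrophic markers, Mmp13. Over all tested genes, 0.524% passed as rises and 0.0835% as falls. For 7 markers of suture mesenchyme the sums were 288 to 332 and 228 to 302. All 7 means were lower in the libraries labelled mutant, and 0 passed the threshold. For 4 of them the groups did not overlap, where 6.79% of all tested genes were lower without overlap. For 10 osteoblast markers the sums, 11119 to 12855 and 11703 to 16075, were mostly Col1a1 (means of 10202 and 10678). Of these 10, 5 were higher and 2 lower without overlap, where 9.34% and 6.79% of all tested genes were. Ibsp, of bone sialoprotein, passed at 1.93-fold (adjusted p = 0.0306 by limma), and the osteocalcin genes Bglap and Bglap2 had ratios of 0.381 and 0.387 without passing. No marker of these 5 lists was at 0 in all libraries. Their part in the values of Ptch1, Hhip, Boc and Cdon was not tested.

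Other differences between libraries were also seen. Relative depth ran from 0.707 in library 3 labelled mutant to 1 in control 1. Control 2 held 88.4 FPKM of the 3 inner ear markers against 1.40 to 4.99 elsewhere. Without overlap, the inner ear sums were 4.13 to 88.4 in controls and 1.40 to 3.59 in the libraries labelled mutant, and all 3 markers were lower in the latter, with 0 past the threshold. Control 1 held 82.0 FPKM of the 5 meningeal markers against 171 to 517 elsewhere. Control 3 had the lowest cartilage sum of the controls. For 6 skeletal muscle markers the sums overlapped between groups (8249 to 13442 and 6954 to 11659), as did those of 5 red cell markers (8941 to 13399.6 and 5036 to 23471), 6 neural markers (40.5 to 44.3 and 15.0 to 77.0) and the meningeal list, while those of 5 endothelial markers did not (164 to 169 and 192 to 197), nor did those of 6 skin and hair follicle markers (5.66 to 7.56 and 3.16 to 5.43). Of the 5 endothelial markers, 1 passed the threshold, as a rise, where 0.524% of all tested genes did. All 5 means were higher in the libraries labelled mutant. For 4 of these 5 markers the groups did not overlap, where 9.34% of all tested genes were higher without overlap. Without control 1, 2 or 3 the log2 change of Ptch1 was 0.64, 0.70 and 0.67, and that of Hhip 0.84, 0.86 and 0.96. By Xist and Y-linked genes, controls 1 and 3 and library 1 labelled mutant read as female. Control 2 and libraries 2 and 3 labelled mutant read as male, so sex was not balanced between the groups. With a sex term from this reading, Ptch1 still passed (adjusted p = 0.0450) and Hhip did not (adjusted p = 0.118, both in limma with Benjamini-Hochberg adjustment).

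**Figure D4:**
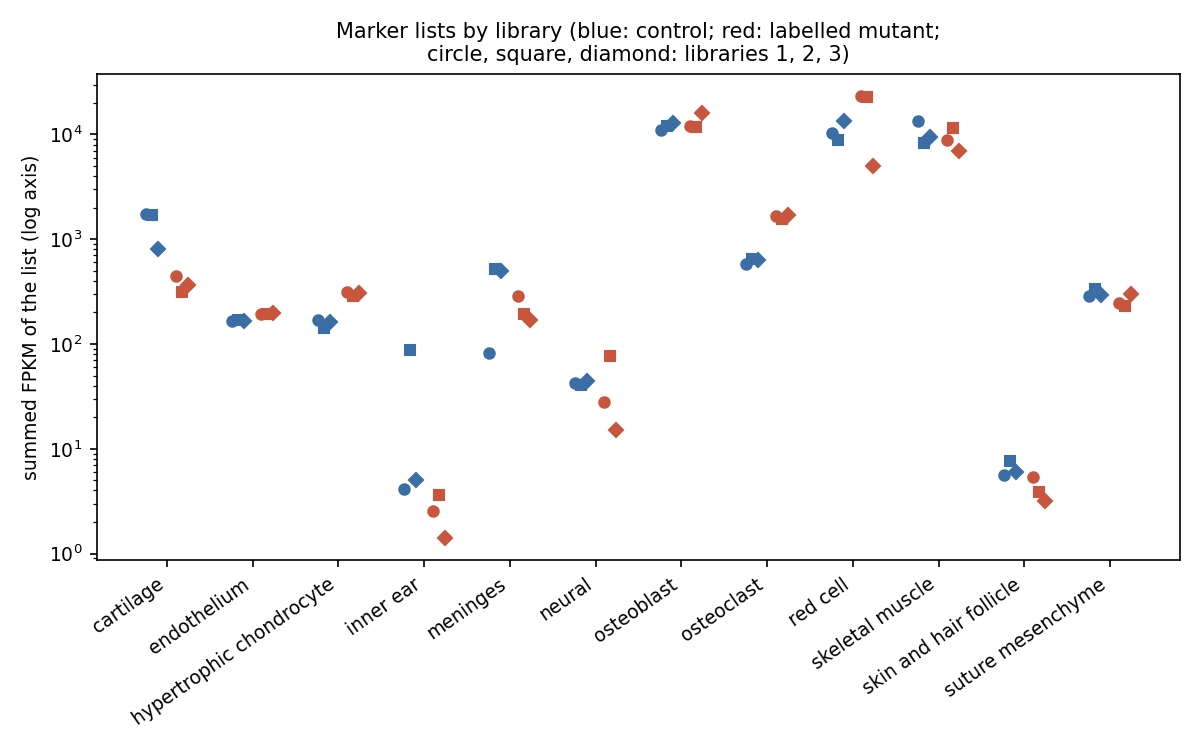
Summed FPKM of each marker list (log axis) in the 3 control libraries (blue) and the 3 labelled mutant (red). The hypertrophic chondrocyte and osteoclast lists are higher and the cartilage list lower in the libraries labelled mutant, and control 2 stands apart in the inner ear list.

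**Figure D5:**
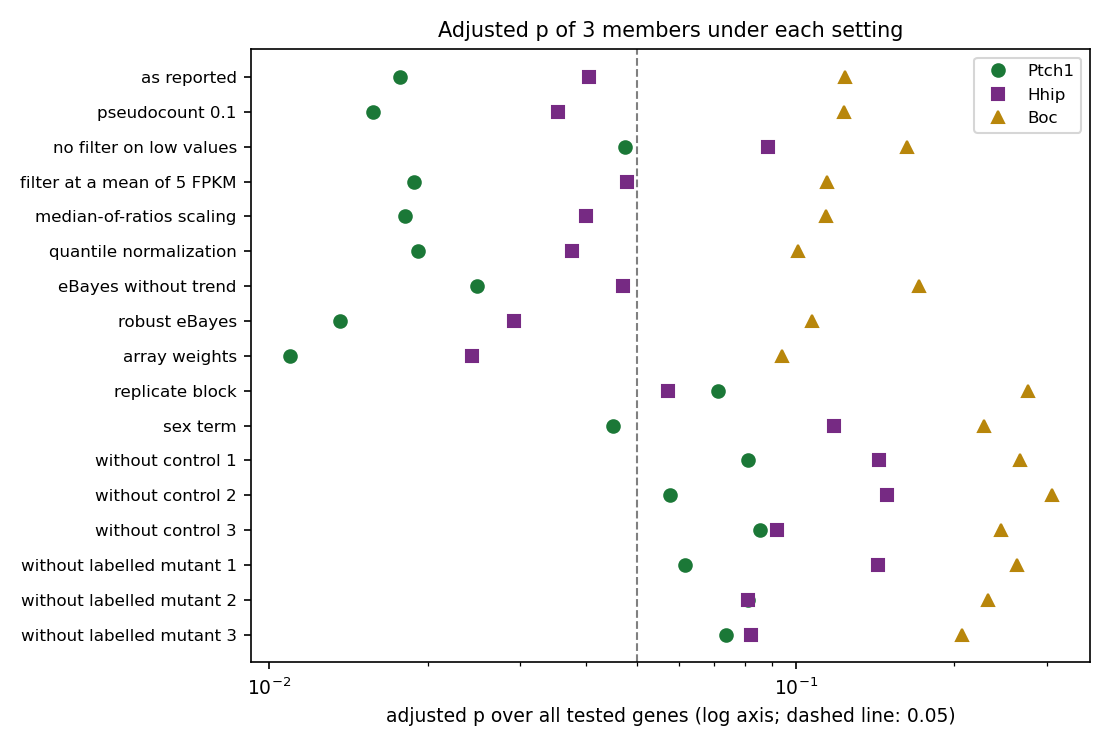
Adjusted p over all tested genes (log axis, dashed line at 0.05) for Ptch1, Hhip and Boc under each way of fitting. Ptch1 and Hhip lie above 0.05 in all 6 fits that leave out a library and with the replicate number as a block, Hhip also with no filter and with a sex term, and Boc lies above it throughout.

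The genes whose values over the 6 libraries ran most like those of a member were picked by Pearson's r of log2(FPKM + 1), as a description, since any gene that differs between the same groups will rank high. For Ptch1 they were Lrrc25, Ctsz, Slc25a5, Isca2 and Csf1r, with r from 0.994 to 0.996. For Hhip they were Pth1r, Steap4, Srpx2, Raph1 and Antxr2, with r from 0.996 to 0.997. Hhip ranked 76th for likeness to Ptch1, with r = 0.965 over the 6 libraries. For Ihh they included Sesn3, Pot1a, Rpl3 and Ccar1, with r from 0.991 to 0.998, and the nearest member was Gli2 (r = 0.884).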

How the data were processed

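Messenger RNA of 6 calvaria libraries was measured, 3 controls and 3 labelled mutant, with group and replicate number taken from the sample titles. The deposited values are FPKM made by the authors, 1 value per gene name. The submitters' processing notes list Cufflinks 2.2.1, SAMtools 0.1.19, Bowtie2 2.2.3 and TopHat2 2.0.13 on build mm10. Options, annotation, strand setting and read totals are not given in the sources used here. Absolute depth is thus unknown. Relative depth, from the steps between values under 0.05 FPKM, was 0.707 to 1 with control 1 set to 1. Lengths enter FPKM, so whole reads were not recovered and no count test was run. Fragments shared between genes are divided by a model, which makes overlapping genes less certain.

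The 13180 names whose mean reached 1 FPKM entered limma 3.58.1 (R 4.3.3) as log2(FPKM + 1) (eBayes with trend, two-sided, Benjamini-Hochberg at 0.05). The pseudocount of 1 understates changes of low genes, and ratios are of mean FPKM. Intervals are 95% limma intervals, unadjusted. The procedure was tested on simulated data with independent normal noise in each gene. These data held no sex or tissue differences between libraries, so the test does not cover such differences. Named genes are all members, then in each pathway list any gene past the threshold, the 3 smallest p and the 2 most abundant, then the 5 genes most alike to Ptch1, Hhip and Ihh. Other genes are marked. The members, lists and tests were chosen with earlier results of these data known. Some genes that these rules or lists would name are not reported here. Of 126 list entries, 0 lacked a name in the files. Coordinates are from GENCODE M21 and promoters from RefSeq, both GRCm38, the assembly of mm10. Promoter entries were matched by symbol for 7 of 9 members.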

Additional observations from a re-analysis of the deposited data

How the results depend on the processing

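All 142 log2 changes of members obtained under the other settings kept their direction, and 126 stayed on the same side of the threshold. The count of members past it was 2 as reported, 1 with no filter on low values, 1 when sex was added, 0 when replicate numbers formed a block and 0 to 0 when any 1 library was left out (limma, with 4 to 6 members at an unadjusted p under 0.05 in these fits). Calls over all tested genes went from 80 (0.607%) to 50 (0.262%) with no filter, 43 (0.326%) with sex, 25 (0.19%) under the block and 15 to 43 without a library, where 8.74% to 10.8% of all tested genes had an unadjusted p under 0.05. The log2 change of Ptch1 was 0.67 under the block (adjusted p = 0.0713), and 0.63 to 0.73 without a library. That of Hhip was 0.89 with no filter (adjusted p = 0.0885), 0.89 under the block (adjusted p = 0.0573), 0.88 with the sex term and 0.77 to 0.97 without a library. Fits lacking a library have fewer samples, and the block and the sex term use up degrees of freedom. Whether this or another difference between libraries, such as sex, lowered the number of calls was not tested. With all 6 libraries Ptch1 passed in 9 of 10 other settings and Hhip in 7. Nothing in the labels says that the replicate numbers pair the libraries, and deviations of same-numbered libraries correlated at 0.0163, -0.0714 and 0.0152, so no pairing was assumed. The other 7 members passed in 0 fits, the smallest adjusted p being 0.0942. All 63 ratios of mean FPKM kept their direction without a library or with median-of-ratios scaling. With the filter at 5 FPKM, Ihh and Gli3 were not tested. Absolute depth is unknown, so no counting error can be given for the low genes.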
